A study of Homo sapiens with 32 samples.

Results

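Nuclear respiratory factor 1 (NRF1) was mapped by ChIP-seq in HEK293T cells, a human embryonic kidney line, and the sites described here are NRF1 summits far from protein-coding gene starts and without a summit of another mapped factor beside them. They were chosen by position: a summit on chromosomes 1 to 22 or X had to lie more than 2000 bp from the 5′ end of every protein-coding gene of GENCODE 44, with no ZNF143, SP1 or YY1 summit within 100 bp. The rule kept 11399 of 39180 NRF1 summits (29.1%), which are called lone distal summits. The other 3 classes were 8771 distal summits with another factor's summit within 100 bp (shared distal summits), 8937 summits near a protein-coding 5′ end without another factor, and 10073 near a 5′ end with one.

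The series held 32 samples in 10 groups, all from the 1 clone HEK_CloneZD29, in which ZNF143 carries a degron tag; the controls carry the tag as well. Cells were either left untreated (control) or exposed to dTAGV-1 at 50 nM (the unit is read so from the labels), a degrader of the tagged protein, for 30 min. Antibodies against NRF1, SP1 and YY1 were used on 4 control and 4 dTAG samples each, and the HA tag of ZNF143 and a mock precipitation on 2 control and 2 dTAG samples each. Each antibody had 1 list of summits; for NRF1 and YY1 the sources used here do not name the samples behind the list. So no value per sample, no spread between samples and no effect of the treatment could be computed for these sites, and the sites are not replicates of one another. A list gives each summit a score, read from its layout and values as the −log10 of the peak caller's p or q value, which can be compared only within that list; the read depth behind it is unknown.

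NRF1 is a transcription factor that binds DNA as a homodimer at a GC-rich palindrome and is known for activating genes of mitochondrial respiration, mitochondrial DNA maintenance and basic growth. Most of its known sites lie in CpG-island promoters, and methylation of the CpGs in its motif blocks its binding. SP1 binds GC boxes and YY1 and ZNF143 bind mostly at promoters, so the factors often meet at gene starts.

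Sequences of the highest-scoring lone distal summits show the motif on which the results turn, the NRF1 core, GCGCNNGCGC (GCGC, any 2 bases, GCGC), and its variants close to the summit. All are from the plus strand of hg38 and read 5′ to 3′. In the first set, 4 of the 10 highest-scoring sites, capitals mark exact copies of the core.
CCDC12, chr3:46976495-46976535: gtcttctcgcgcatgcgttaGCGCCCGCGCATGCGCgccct
AFG3L1P, chr16:89972567-89972607: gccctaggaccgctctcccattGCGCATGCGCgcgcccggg
DAGLB, chr7:6447977-6448017: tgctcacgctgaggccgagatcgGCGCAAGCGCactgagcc
TFAP2A, chr6:10404279-10404319: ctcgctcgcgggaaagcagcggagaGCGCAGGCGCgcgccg
CCDC12 shows 2 overlapping copies of the core that share GCGC. AFG3L1P carries the palindromic form, GCGCATGCGC, while DAGLB and TFAP2A have other bases in the middle.

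The next set shows high-scoring sites with no exact core within 50 bp of the summit. Capitals mark a core with 1 mismatch at RPL36 and the shorter string TGCGCA, which holds 1 arm of the core, at FALEC and PFKFB4.
RPL36, chr19:5690162-5690191: gagctcggtcGCGCATGCTCagcgcaacgg
FALEC, chr1:150515715-150515755: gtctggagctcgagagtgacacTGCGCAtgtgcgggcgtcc
PFKFB4, chr3:48557029-48557069: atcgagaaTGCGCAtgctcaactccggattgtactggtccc

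The last set holds the 3 highest-scoring sites over 100 kb from every protein-coding gene 5′ end, and each had the palindromic form in capitals.
nearest gene NTMT1, chr9:129413890-129413930: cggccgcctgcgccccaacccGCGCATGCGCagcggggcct
intron of CWC27, chr5:65035502-65035542: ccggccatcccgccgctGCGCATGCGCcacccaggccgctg
FAM182B, chr20:25861658-25861698: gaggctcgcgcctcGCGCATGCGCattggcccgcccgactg

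Most lone distal summits were weak calls. Their median score was 4.09 (quartiles 2.78 and 6.68), beside 6.16 at shared distal summits, 6.03 at summits near a 5′ end alone and 17.0 at those near a 5′ end with another factor; since the rule selects NRF1 calls, these are descriptions without a test. Of the lone distal summits, 7047 (61.8%) scored under 5 and 527 (4.62%) scored 100 or over, called weak and strong lone distal summits. The highest reached 22642.1. Lone distal summits made up 8.81% of the highest decile of the list by score and 47.1% of the lowest. The class thus ran from a large weak part to a small strong part.

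**Figure D1:**
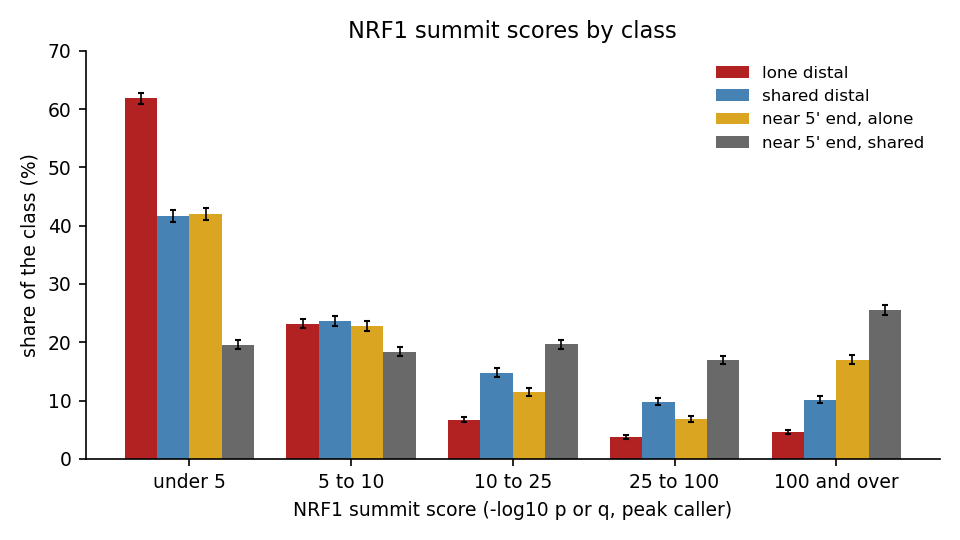
Share of each NRF1 summit class (y axis, percent) in 5 ranges of the summit score (x axis), with 95% Wilson intervals as error bars. Lone distal summits, in red, have 61.8% of their number under a score of 5 and 4.62% at 100 or over.

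A peak can hold several summits, and 6151 lone distal summits (54.0%) lay in a peak with more than 1. Of all lone distal summits, 7338 (64.4%) were the highest of their peak, and 3663 (32.1%) lay in a peak that also held a summit of another class. Among the strong ones 93.5% were the highest of their peak. Side summits were thus common among lone distal summits and rare among the strong ones.

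At the edges of the rule, 853 NRF1 summits without another factor lay over 1500 and up to 2000 bp from a protein-coding 5′ end, with a median score of 4.16, and 543 lay over 2000 and up to 2500 bp away, with a median of 3.88. Among distal summits, 1593 had another factor's summit over 75 and up to 100 bp away, with a median score of 5.49 and a core at 6.03%, and 1369 had one over 100 and up to 125 bp away, with a median of 4.73 and a core at 5.48%.

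The absence of another summit within 100 bp rarely meant an isolated site. Another factor's summit lay within 250 bp of all but 4839 lone distal summits (42.5%) and within 1000 bp of all but 890 (7.81%). Within 1000 bp, 88.7% (88.1 to 89.2) had an SP1 summit, 87.3% (86.7 to 87.9) a YY1 summit and 23.2% (22.4 to 24.0) a ZNF143 summit. These shares were not computed over all NRF1 summits or over genome positions, so they describe the lone distal summits only. All intervals given for shares are 95% Wilson intervals and those for differences 95% Newcombe intervals; they cover counting error among sites only, and neighbouring sites are not independent. No other summit lay within 5000 bp of 522 lone distal summits (4.58%) and within 50000 bp of 87.

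Strong sites were packed nearer to the other factors than weak ones. Of the 527 strong lone distal summits, 392 had another factor's summit up to 250 bp away. SP1 was within 250 bp of 63.0% (58.8 to 67.0) of the strong sites and 41.3% (40.2 to 42.5) of the weak ones, YY1 of 57.7% (53.4 to 61.8) and 42.4% (41.2 to 43.5), and ZNF143 of 18.0% (15.0 to 21.5) and 4.40% (3.94 to 4.90). Within 1000 bp the order turned for SP1, with 82.7% (79.3 to 85.7) of the strong and 88.8% (88.0 to 89.5) of the weak sites, and for YY1, with 81.4% (77.9 to 84.5) and 87.5% (86.7 to 88.3).

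**Figure D2:**
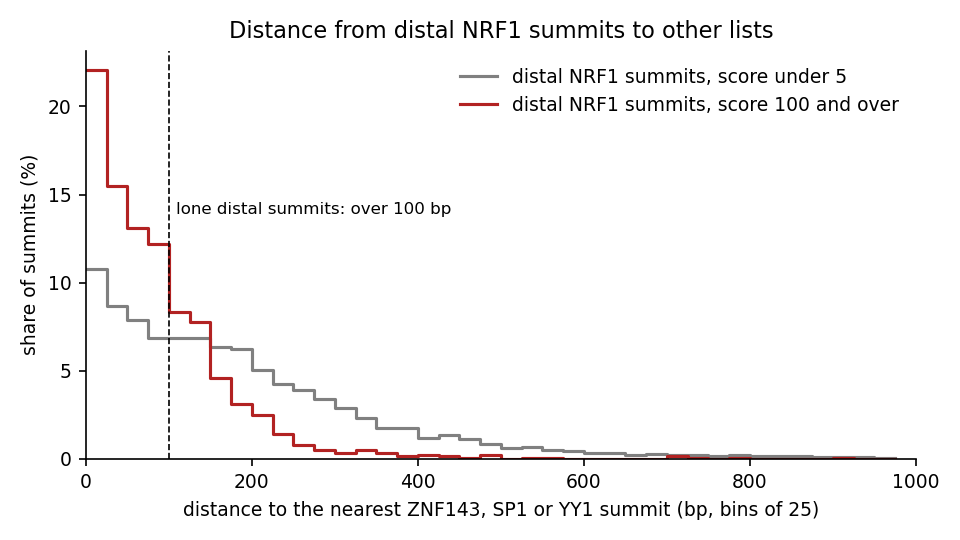
Share of distal NRF1 summits (y axis, percent, bins of 25 bp) by the distance to the nearest ZNF143, SP1 or YY1 summit (x axis, bp), for scores under 5 and of 100 or over. Summits to the right of the dashed line at 100 bp are lone distal summits; most strong ones among them (392 of 527) have one up to 250 bp away.

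The NRF1 core was present within 50 bp of 314 lone distal summits, 2.75% (2.47 to 3.07). Over all NRF1 summits the share was 7.31%. Windows of the same length placed 400 bp to either side of the lone distal summits held the core at 0.180% (0.133 to 0.244), and all such windows of the genome at 0.0316%. Lone distal summits of the other antibodies, defined in the same way, had the core at 0.0507% for SP1 and 0.0979% for YY1. The core thus stood above its surroundings at lone distal NRF1 summits, but at a small minority of them.

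The share depended steeply on the score. The core was found at 3 of 7047 weak lone distal summits (0.0426%, 0.0145 to 0.125), at 0.379% (0.206 to 0.697) of those scoring 5 to 10, 3.13% (2.11 to 4.62) at 10 to 25, 12.8% (9.94 to 16.3) at 25 to 100 and 42.3% (38.2 to 46.6), or 223 sites, at 100 and over. Among the 4230 weak lone distal summits with the nearest other summit over 200 bp away there were 0 cores, which allows a share of up to 0.0709%. The 223 strong sites were most of the 314 with a core in the whole class.

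The difference in core share between lone and shared distal summits was called within the higher score ranges only, and there it had the opposite sign to that over all scores. Over all scores, 4.42% (4.01 to 4.87) of shared distal summits had the core, and the difference, lone minus shared, was -1.67 percentage points (-2.20 to -1.15). Within the score ranges it was -0.0942 (-0.279 to 0.0196) under 5 and -0.249 (-0.725 to 0.162) at 5 to 10. It was 0.66 (-0.765 to 2.31) at 10 to 25, so the intervals of the 3 lower ranges held 0. It was 5.93 (2.50 to 9.76) at 25 to 100 and 11.0 (5.85 to 16.2) at 100 and over, where 31.3% (28.3 to 34.4) of 892 shared distal summits had the core. With only the highest summit of each peak the difference was -1.55 (-2.27 to -0.836) over all scores and 11.5 (6.15 to 16.9) at 100 and over. Over all scores it was -0.591 (-1.21 to -0.0167) where a summit within 50 bp counted as shared, and it turned to 2.71 (1.29 to 4.49) where one within 1000 bp did. The median score of the strong summits was 857.7 for lone and 656.6 for shared ones, and at 25 to 100 it was 43.5 and 42.8; the part of the score in the difference was not tested further. Lone distal summits had the core less often as a whole and more often in the 2 highest score ranges.

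**Figure D3:**
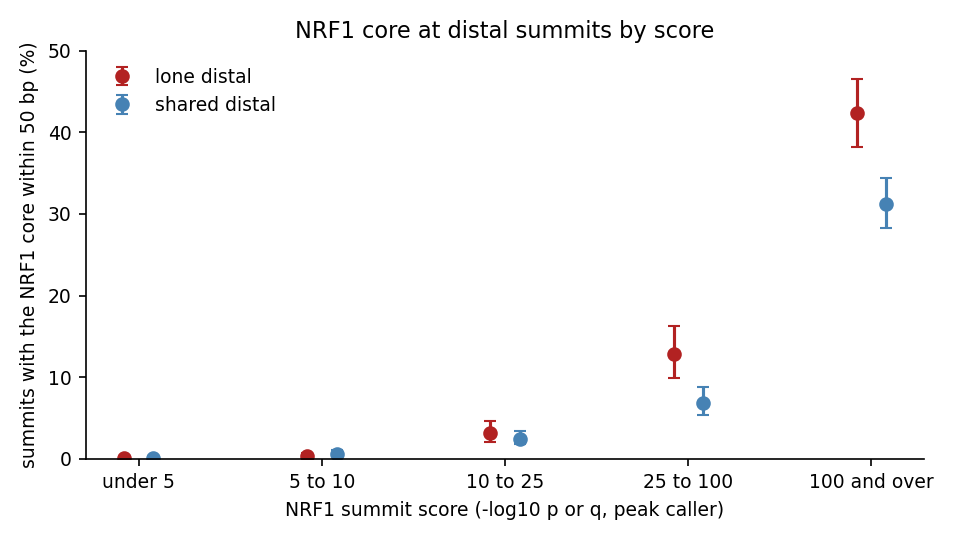
Share of distal NRF1 summits with the NRF1 core within 50 bp (y axis, percent) by score range (x axis), for lone summits (red) and shared summits (blue), with 95% Wilson intervals. Lone summits reach 42.3% and shared ones 31.3% at scores of 100 and over.

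Other forms of the NRF1 motif were also most frequent at strong lone distal summits. The palindrome GCGCATGCGC, which is also counted as a core, was within 50 bp of 66 lone distal summits, 0.579% (0.455 to 0.736), beside 1.17% of all NRF1 summits and 0.00295% of genome windows, and of 11.6% (9.12 to 14.6) of the strong ones; it was at 0 of 9684 lone distal summits scoring under 10, which allows up to 0.0310%. Lone minus shared, the palindrome differed by -0.0481 percentage points (-0.273 to 0.166) over all scores, an interval that holds 0, and by 5.41 (2.38 to 8.73) at 100 and over. The string TGCGCA, its own reverse complement, which may overlap a core, was at 4.54% (4.18 to 4.94) of them, beside 8.30% of all NRF1 summits and 0.288% of genome windows, and at 43.6% (39.5 to 47.9) of the strong ones. Core or TGCGCA together were at 6.30% (5.87 to 6.76), beside 13.0% of all NRF1 summits and 0.313% of genome windows, and at 67.2% (63.1 to 71.0) of the strong ones, where the difference from strong shared distal summits was 12.2 percentage points (7.00 to 17.3). For core or TGCGCA the difference was -3.93 (-4.71 to -3.16) over all scores, -0.300 (-0.651 to -0.0119) under 5, 4.77 (1.93 to 7.78) at 10 to 25 and 15.8 (10.4 to 21.3) at 25 to 100. Allowing at most 1 mismatch, 82.4% (78.9 to 85.4) of strong lone distal summits held the core, against 10.7% of their flanks. Of the 173 strong ones with neither core nor TGCGCA, 63.0% (55.6 to 69.8) held a core with 1 mismatch, against 10.4% of their flanks. At weak lone distal summits the core with at most 1 mismatch was at 0.993% (0.787 to 1.25), and their flanks had 1.36%.

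Counting every 8-base string on both strands, the one with the largest gap in percentage points between strong sites and flanks was GCATGCGC, at 29.2% (25.5 to 33.2) of the strong sites and 0.380% of flanks. GCCTGCGC was at 23.7% (20.3 to 27.5), against 0.854%, and CATGCGCA at 23.0% (19.6 to 26.7), against 0.190%. All 3 overlap parts of the core. In the 304 strong sites without an exact core, GCATGCGC was at 27.6% (22.9 to 32.9) and CATGCGCA at 24.7% (20.2 to 29.8), against 0.329% and 0.164% of flanks. At weak sites the leading strings were A and T only, with TTTAAAAA at 6.47% (5.92 to 7.07) against 4.90% of flanks. All these strings were picked by their gap to the flanks in the same sites. The intervals do not allow for that picking, so they are no test of the gaps.

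Counted by copy, cores lay less tightly around strong lone distal summits than around strong shared ones. Of the 296 core copies within 50 bp of strong lone distal summits, 40.9% (35.4 to 46.6) had their centre within 10 bp of the summit, beside 53.8% (48.4 to 59.1) of 329 copies at strong shared distal summits, a difference of -12.9 percentage points (-20.5 to -5.08). The median distance of the copies was 12.5 bp at lone and 9.5 bp at shared ones. A site could hold several copies, overlapping ones included, and the interval treats copies as independent. The nearest copy of each site was not compared. Copies thinned out within about 50 bp on both sides for both classes.

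**Figure D4:**
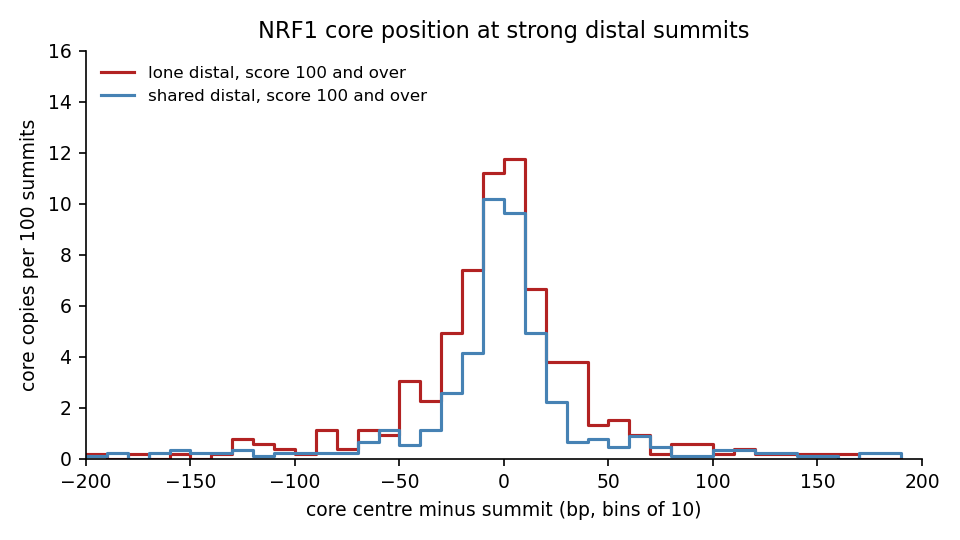
NRF1 core copies per 100 summits (y axis) by the distance of the core's centre from the summit (x axis, bp, bins of 10), for lone (red) and shared (blue) distal summits scoring 100 and over. Both peak at the summit; 40.9% of the copies within 50 bp at lone and 53.8% at shared summits lie within 10 bp.

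Along the distance to the nearest other factor, the core share of strong distal summits was 23.6% (19.3 to 28.7) with another summit at 0 to 25 bp, 28.6% (23.1 to 34.9) over 25 and up to 50 bp away and 39.6% (34.6 to 44.7) up to 100 bp. Among strong lone distal summits it was 45.2% (38.8 to 51.7) with one over 100 and up to 150 bp away, 48.6% (39.4 to 57.9) up to 200 bp, 43.6% (31.4 to 56.7) up to 250 bp and 34.8% (22.7 to 49.2) up to 500 bp, each range starting where the one before it ended. With the nearest one over 5000 bp away it was 32.8% (22.3 to 45.2), or 20 of 61 sites. In the ranges between, the core was at 2 of 7 sites over 500 to 1000 bp and 5 of 21 over 1000 to 5000 bp. The median score of the strong summits was 435.7, 512.8 and 1204.7 for the shared ranges. It was 1437 (over 100 to 150 bp), 1945.8, 810.4 and 421.3 for the next lone ranges and 237.5 beyond 5000 bp. Score and core share did not go together throughout. Summits over 250 to 500 bp and over 5000 bp away had lower median scores than those at 0 to 25 bp, but higher core shares. The part of the score in the core share was not tested. The share was 45.9% over the 392 strong lone distal summits with another summit up to 250 bp away and 31.9% over the 135 beyond that, a difference of 14.1 percentage points (4.47 to 22.9). Over all scores, the 87 lone distal summits with no other summit within 50000 bp had a median score of 15.5 and a core at 17.2% (10.7 to 26.5), or 15 sites.

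The rule removed summits beside SP1, YY1 or ZNF143 summits, so the shares of these factors' motifs are given as descriptions of what it left. The GC box GGGCGG, to which SP1 binds, was within 50 bp of 5.98% (5.56 to 6.43), beside 17.8% of all NRF1 summits, 5.74% of the flanks and 1.50% of genome windows. At strong lone distal summits it was at 37.2% (33.2 to 41.4), against 18.3% of their flanks, and the difference from strong shared distal summits was -0.0281 percentage points (-5.18 to 5.20). The YY1 string AAGATGGC was at 0.211% (0.142 to 0.313), beside 0.648% of all NRF1 summits and 0.417% of the flanks and 0.408% of genome windows, and at 0 of 527 strong ones, which allows up to 0.569%. The ZNF143 consensus, searched as a string, was at 0.307% (0.221 to 0.427), beside 0.579% of all NRF1 summits, 0.399% of the flanks and 0.485% of genome windows. All strings were searched on both strands, and the forms of the NRF1 motif overlap one another.

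CTCF, AP-1, TEAD and ETS factors, which act at enhancers, insulators or promoters and whose binding was not analysed here, were represented by their motifs. The CTCF consensus was at 0.351% (0.258 to 0.477) of lone distal summits and 0.254% of their flanks, beside 0.684% of all NRF1 summits and 0.0339% of genome windows, and at 2.26% of shared distal summits, a difference of -1.91 percentage points (-2.25 to -1.59). The AP-1 string TGANTCA was at 2.74% (2.45 to 3.05), beside 2.18% of all NRF1 summits, 2.84% of flanks and 3.08% of genome windows. The TEAD string GGAATG was at 4.80% (4.42 to 5.21), beside 4.39% of all NRF1 summits, 4.80% of flanks and 5.56% of genome windows. The ETS string CCGGAAGT was at 0.114% (0.0667 to 0.195), beside 0.858% of all NRF1 summits, 0.145% of flanks and 0.0457% of genome windows. Shares of AP-1, TEAD and ETS strings at lone distal summits lay within counting error of those in their flanks.

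CpG content rose with the score. Within 250 bp to either side of lone distal summits the median ratio of observed to expected CpGs was 0.303 (quartiles 0.175 and 0.510), beside 0.446 at shared distal summits and 0.184 over genome windows of that length. The median was 0.261 at weak and 0.772 at strong lone distal summits. Windows with at least 50% GC and a ratio of at least 0.6, the usual measures of a CpG island, were found at 13.2% of lone and 32.4% of shared distal summits, a difference of -19.2 percentage points (-20.4 to -18.1). The share was 5.26% at weak and 74.0% at strong lone distal summits, against 1.18% of genome windows. Strong lone and strong shared distal summits differed by -3.01 percentage points (-7.73 to 1.56), an interval that holds 0.

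Read from the side of the genome, most distal copies of the motif had no NRF1 summit. Of 7390 cores over 2000 bp from every protein-coding gene 5′ end, 12.1% had any NRF1 summit within 50 bp, 5.89% (5.37 to 6.45) a lone distal one and 6.14% (5.62 to 6.71) a shared one; of 5604 cores nearer to a 5′ end 48.3% had an NRF1 summit. Occupancy by lone distal summits differed by the 2 middle bases: a lone distal summit was at 13.3% (10.6 to 16.5) of 512 copies with AT in the middle, 14.6% (10.3 to 20.3) of those with AA, 10.4% (8.72 to 12.4) with AG and 8.10% (6.43 to 10.2) with AC. It was at 3.51% (2.90 to 4.24) of those with GC, 2.40% (1.48 to 3.86) with CC and 1.85% (0.977 to 3.48) with CA, each core counted with its reverse complement. Cores with GC in the middle, 2933 of the 7390, are runs of repeated GC. Overlapping matches within 1 run were counted as separate copies, so these copies are not independent sites. They also enter the shares over all cores. CpG density around the copy went along with occupancy: of palindromes with over 10 and up to 20 CpGs in 500 bp 6.19% (2.87 to 12.8) had a lone distal summit, with up to 40 CpGs 15.3% (10.9 to 21.0) and with over 40 CpGs 21.0% (15.1 to 28.4). Below that, 1 of 23 palindromes with up to 5 CpGs and 1 of 53 with over 5 and up to 10 had one. Over all cores the share was 1.27% (0.794 to 2.02) with over 5 and up to 10 CpGs and 9.70% (8.56 to 11.0) with over 40. With up to 5 CpGs it was 2.54% (0.868 to 7.21), or 3 of 118 cores.

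Lone distal summits lay in genes somewhat more often than genome bases. A gene body held 72.7% (71.8 to 73.5) of them, against 60.7% of genome bases, and the difference from shared distal summits was -0.62 percentage points (-1.85 to 0.618). Introns held 60.5% (59.6 to 61.4), against 55.4% of genome bases, which was 6.97 percentage points (5.60 to 8.35) more than at shared distal summits. At strong lone distal summits introns held 43.1% (38.9 to 47.3). The median distance to the nearest protein-coding gene 5′ end was 33135 bp, and 2860 lone distal summits (25.1%) lay over 100 kb away.

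Distance from a gene's 5′ end did not mean distance from every transcript start. The rule uses 1 end per protein-coding gene, and 2462 lone distal summits, 21.6% (20.9 to 22.4), had the start of another transcript of such a gene within 2000 bp. Shared distal summits had one at 28.8%, a difference of -7.18 percentage points (-8.39 to -5.97), lone minus shared. The 5′ end of a gene of another type, most often a long noncoding RNA (1175 sites), lay within 2000 bp of 14.9% (14.2 to 15.5); the difference from shared distal summits was -4.74 percentage points (-5.80 to -3.69). Neither was within 2000 bp of 7715 lone distal summits, 67.7% (66.8 to 68.5). At strong ones a protein-coding transcript start lay within 2000 bp of 45.2% (41.0 to 49.4) and within 500 bp of 38.5% (34.5 to 42.7), another gene's 5′ end within 2000 bp of 28.5% (24.8 to 32.5), and neither at 198 sites, 37.6% (33.5 to 41.8).

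The motif was counted apart at these 198 strong sites, over 2000 bp from both kinds of start. Inner transcript starts of genes of other types were not checked. Their median score was 459, beside 1403 at the 329 strong sites near a start. The core was at 35.9% (29.5 to 42.7) of the 198 and 46.2% (40.9 to 51.6) of the 329, a difference of -10.3 percentage points (-18.7 to -1.64); for core or TGCGCA it was -2.43 (-10.8 to 5.72). Strong shared distal summits equally far from starts had the core at 29.1%, and the difference of the 198 from them, 6.78 percentage points, had an interval that holds 0 (-1.66 to 15.3). Windows of the island kind were at 49.5% (42.6 to 56.4) of the former and 88.8% (84.9 to 91.7) of the latter. Another factor's summit lay within 1000 bp of 69.2% (62.4 to 75.2) of the former and 93.6% (90.4 to 95.8) of the latter.

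**Figure D5:**
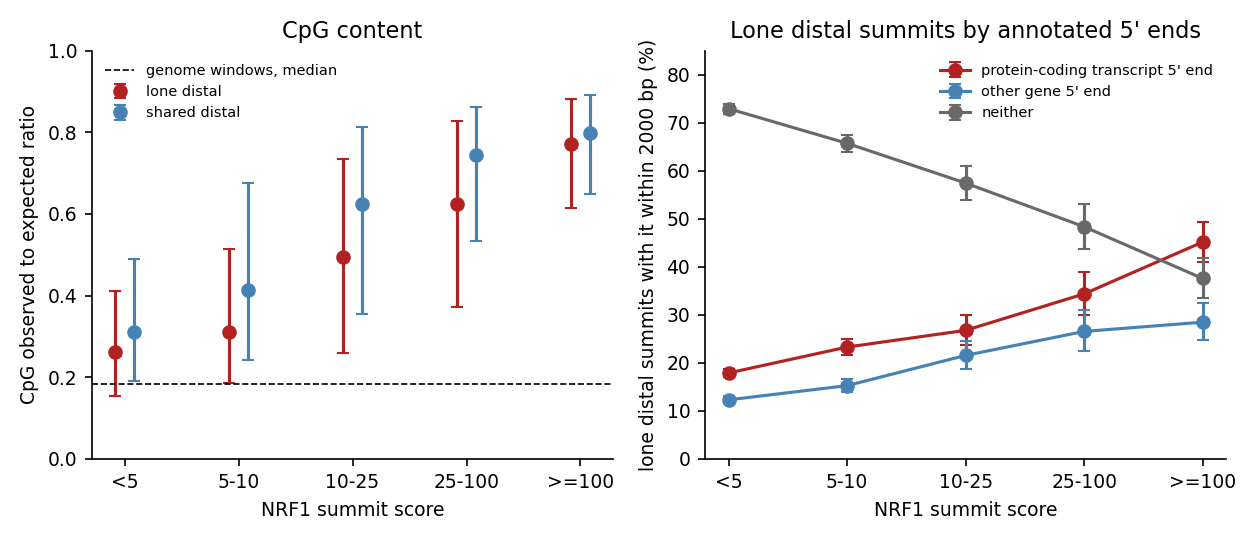
Left, CpG observed to expected ratio within 250 bp of the summit (median, bars are quartiles) by NRF1 score range for lone (red) and shared (blue) distal summits, with the genome median of 0.184 as a dashed line. Right, share of lone distal summits with a transcript 5′ end of a protein-coding gene, another gene's 5′ end or neither within 2000 bp, with 95% Wilson intervals. The median ratio of lone summits rises from 0.261 to 0.772, and the share near a transcript start of a protein-coding gene reaches 45.2%.

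All of the 10 highest-scoring lone distal summits lay within 500 bp of an annotated start: 7 at a transcript of a protein-coding gene, other than its outermost one, and 5 at a gene of another type, with some at both. All 10 also had another factor's summit within 250 bp, and 8 had a core within 50 bp. The highest, chr5:179623766 with a score of 22642.1, lay in a UTR 45 bp from a transcript start of HNRNPH1, which encodes a splicing factor, and 11018 bp from that gene's 5′ end; its nearest SP1 summit was at 134 bp. The site at chr3:46976515, scoring 21720.9, was 14 bp from a transcript start of CCDC12, a spliceosome-associated protein, with the nearest YY1 summit at 199 bp. At chr16:89972587, scoring 17970.1, the summit was 6 bp from the 5′ end of AFG3L1P, a pseudogene of a mitochondrial protease subunit. The summit at chr7:6447997, scoring 17520.6, was 26 bp from a transcript start of DAGLB, which makes an endocannabinoid.

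Other sites of the highest 10 showed the same placing. The summit at chr22:22298110, scoring 15172.5, had 3 cores within 50 bp and lay 14 bp from the 5′ end of a long noncoding RNA gene, ENSG00000286129. Its central 31 bp occurred at 9 places in the genome. At chr6:10404299 a summit scoring 14757.4 lay 295 bp from a transcript start of TFAP2A, a developmental transcription factor, and 203 bp from TFAP2A-AS2. A summit scoring 15228.5 at chr19:5690170 lay 125 bp from a transcript start of RPL36, a ribosomal protein gene, and one scoring 14561.3 at chr16:87951334 lay 96 bp from a transcript start of BANP, which encodes a factor that itself binds CpG-island promoters. Both of these lacked an exact core within 50 bp.

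Among further strong sites without an exact core, chr1:150515735, scoring 14218.9, lay 22 bp from FALEC, a long noncoding RNA gene, and carried 2 copies of TGCGCA. A summit in NDEL1, a dynein regulator, at chr17:8435755 scored 13720.8 and had 2 copies, and one in PFKFB4, an enzyme that sets the level of a glycolysis regulator, at chr3:48557049 scored 12787.1 and had 1.

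The 5 highest-scoring sites over 100 kb from protein-coding gene 5′ ends all had a core within 50 bp. They scored 12939.2 at chr9:129413910, 8526.73 in CWC27 at chr5:65035522, 6280.36 in FAM182B at chr20:25861678, 5385.82 at chr13:33542559 and 4716.05 at chr10:78303484. Of these, the last 4 lay in introns. CWC27 encodes a spliceosome-associated cyclophilin.

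The 3 lone distal summits with most cores scored below the 10 highest-scoring ones. The lone distal summit with most copies within 250 bp, 8 copies in an intron of ZFHX3, scored 37.1, and one with 7 copies at chr21:9043165 scored 265.5. Overlapping copies were counted, and some of the 8 at ZFHX3 overlap within a run of repeated GC. One near the end of chromosome 9, at chr9:11002, had 6 copies and scored 140.8, and its central 31 bp occurred at 49 places in the genome. Over all lone distal summits 8.03% (7.54 to 8.54) had a central 31 bp found at more than 1 place, and 4.55% (3.08 to 6.69) of the strong ones; how reads from repeated sequence were treated is not given in the sources used here.

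Lone distal summits often had neighbours of their own class, with another one within 1000 bp for 37.7% of them and within 10 kb for 53.3%. A neighbour could be a summit of the same peak, since the 11399 lone distal summits lay in 9007 peaks. The same shares over all NRF1 summits were not computed. The 2 densest stretches of up to 10 kb held 10 lone distal summits each and differed in kind. The stretch at chr1:234597930-234607880, with IRF2BP2 as the nearest protein-coding gene, had a median score of 5.88, 0 cores, and 14 SP1 and 13 YY1 summits. The stretch at chr12:34340323-34349540, nearest to ALG10, had a median score of 460.2 and a highest of 1945.8, 2 members with a core, and only 1 SP1 and 2 YY1 summits. The third densest, at chr1:28246808-28252254 nearest to SESN2, had 9 lone distal summits with a median of 3.28.

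Over chromosomes, lone distal summits per megabase of known sequence ranged from 1.15 on chromosome 2 and 1.41 on X to 6.23 on chromosome 22 and 6.64 on chromosome 6. Strong ones had another order, highest on chromosomes 19 (0.702 per megabase) and 17 (0.507). Across the 23 chromosomes the density of weak lone distal NRF1 summits had a Spearman rho of 0.896 with that of lone distal SP1 summits, 0.773 with lone distal YY1 summits and 0.802 with shared distal NRF1 summits. For strong ones rho was 0.333, 0.682 and 0.683 in the same order. All these lists share each chromosome's copy number in the clone and its gene density, so the values are descriptions only.

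A list of 33 genes linked to NRF1 was also followed; it held genes of respiration, mitochondrial DNA upkeep, mitochondrial import and heme synthesis, regulators such as PPARGC1A and GABPA, NRF1 itself and FMR1. Of these, 31 had an NRF1 summit within 2000 bp of the 5′ end, as did 55.8% of all 19970 protein-coding genes; COX7A2, a subunit of cytochrome c oxidase, and PPARGC1A had 0. Of the 33, 10 were the nearest protein-coding gene of any lone distal summit, beside 25.6% of all genes. The highest such summit scored 15.5, in UQCRC1, a subunit of respiratory complex III, and the 4 next to CYCS, cytochrome c, reached 6.68. TFAM, which packages mitochondrial DNA, had a promoter summit of 4307.2 and 0 lone distal summits nearest to it.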

How the data were processed

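ChIP-seq summits of NRF1 were analysed with those of SP1, YY1 and ZNF143 in the same HEK293T clone; the mock samples were not used here. The authors deposited 1 list of 1-bp summits per antibody, and the score of a summit is read, from its layout and values, as −log10 of a p or q value; which of them, and which of the 4 control and 4 dTAG samples entered the NRF1 list, is not given in the sources used here. Cutadapt, Bowtie2, SAMtools 1.16.1, MACS3 and bedtools and the build hg38 are named per the submitters' processing notes, without roles. Peak numbers skip in the lists: 18 runs of at least 10 numbers in the NRF1 list and 44 in the YY1 list, between whose ends 56 NRF1 summits lie, 28 of them lone distal summits.

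Distances were taken to GENCODE 44 5′ ends (1 per gene) and between summits. Motif strings were searched on both strands of hg38 within 50 bp of each summit, in windows 400 bp to either side and in 28823156 adjacent windows of the genome. Shares have 95% Wilson and differences 95% Newcombe intervals, which cover counting error among sites only; a difference is called where its interval leaves out 0. For a count of 0, 3 counts give the limit. The scripts (Python 3.11.15, numpy 2.4.6, pandas 2.3.3) were tested on simulated data with planted motifs and known classes. Named sites, none on chromosome 8 and 1 per 10 kb, are the 10 highest-scoring lone distal summits, the 5 highest without a core, the 5 highest over 100 kb from protein-coding 5′ ends, the 3 with most cores within 250 bp, and the 3 densest runs within 10 kb. The sites, motifs and gene list were chosen with earlier results of these data known. Other thresholds, windows and motif forms were tried as alternatives; a search for repeat-masked bases was left out because the reference used has 0 lines with lower-case bases.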

Additional observations from a re-analysis of the deposited data

How the results depend on the processing

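No paired analysis was possible because the lists give no value per sample, and for the same reason no replicate could be left out. Beside the 11399 lone distal summits, median score 4.09, core share 2.75%, lone minus shared core difference -1.67 percentage points, occupied palindromes 13.3%, gene-body share 72.7%, share near other genes' 5′ ends 14.9% and CpG ratio 0.303, these values moved; the cause was not tested.

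With another factor's summit counted as shared within 50 bp, they were a score of 4.31, core 3.32%, core difference -0.591 (-1.21 to -0.0167), palindromes 19.7%, other genes 15.9% and a ratio of 0.324; within 250 bp, 4839 summits, 3.76, 1.86%, palindromes 5.08% and 0.271; within 1000 bp, 890 summits, 4.44, 6.07%, a reversed core difference of 2.71 percentage points (1.29 to 4.49), palindromes 4.30%, gene body 65.3%, other genes 7.30% and 0.246. With 1000 bp from 5′ ends, gene body was 75.0%, other genes 17.5% and the ratio 0.321; with 5000 bp, gene body 70.7% and the ratio 0.297. With the 5′ end of every transcript of a protein-coding gene, the score was 3.97, core 1.96%, gene body 65.2%, other genes 13.7% and the ratio 0.273. With the highest summit of each peak, there were 7338 summits, a score of 4.50, core 4.07%, gene body 71.8%, other genes 11.8% and a ratio of 0.286. In the top 50% of the list by score, there were 3207 summits, a score of 10.6, core 9.60%, a core difference of the other sign but not called, 0.917 (-0.387 to 2.25), gene body 71.3%, other genes 21.1% and 0.466. Leaving out summits in runs of skipped peak numbers moved none of the 8 results.

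The core share was 1.97% within 25 bp, 3.13% within 100 bp, 0.579% for the palindrome and 0.702% for the longer NRF1 consensus; for the last 2 the core difference was no longer called, at -0.0481 (-0.273 to 0.166) and -0.0165 (-0.259 to 0.215). Palindromes with a lone distal summit within 25 bp were 10.2%, and cores within 50 bp 5.89%. The CpG ratio within 100 bp of the summit was 0.289. The next alternatives were chosen after seeing the data. Core or TGCGCA gave 6.30% and a difference of -3.93. Scores of 100 and over gave 527 summits, a score of 857.7, core 42.3%, a reversed difference of 11.0, gene body 73.6%, other genes 28.5% and 0.772. Another kept summits over 2000 bp from transcript starts of protein-coding genes and from the 5′ ends (1 per gene) of other genes. It gave a score of 3.83, core 1.54%, a difference of -0.718 (-1.23 to -0.237), gene body 65.1% and 0.255. All alternatives for repeat-masked bases were not run. The read depth behind the scores is unknown, so the reads behind the 61.8% of lone distal summits scoring under 5 cannot be counted.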
